A study of Mus musculus with 4 samples.

Results

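The SWI/SNF and ISWI chromatin remodellers described here are 10 genes, chosen by name from the 55335 annotated genes measured in mouse oocytes: the ATPases *Smarca2*, *Smarca4* and *Smarca5*, the core subunits *Smarcb1*, *Smarcc1*, *Smarcc2* and *Smarcd1*, and the ARID subunits *Arid1a*, *Arid1b* and *Arid2*. All 10 symbols matched exactly 1 gene. The readout was RNA-seq on Smart-Seq2 libraries, in which cDNA is copied over the whole transcript and amplified from small inputs. The 4 libraries came from oocytes of C57BL/6 mice, 2 with the genotype label Control and 2 with the label Mutant, and the names of all 4 carry the prefix MII. The mice of the study carried a point change at the alternative splice site of exon 3 of *Ezh2*, the gene of the histone methyltransferase in Polycomb repressive complex 2. The study names a long and a short *Ezh2* form, and the label Mutant leaves unsaid which of them these oocytes make, nor do the labels give an age or the number of animals or oocytes behind a library. Separate animals are not stated for the libraries either, so p-values cover the spread between these 4 libraries, which may be technical.

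SWI/SNF complexes, called BAF in mammals, use ATP to slide or evict nucleosomes and so open chromatin. Each holds either SMARCA4 (BRG1) or SMARCA2 (BRM) as its motor, with SMARCC and SMARCD subunits. Canonical BAF adds SMARCB1 and ARID1A or ARID1B, the polybromo form, PBAF, adds SMARCB1 and ARID2, and a non-canonical form with BRD9 holds neither SMARCB1 nor an ARID subunit. ISWI complexes, built on SMARCA5 (SNF2H) or SMARCA1, space nucleosomes evenly. SWI/SNF is classically described as opposing Polycomb silencing, and maternal *Smarca4* in mice is needed for zygotic genome activation.

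The libraries held between 25090032 and 26617816 counts. *Ezh2* was at 313 and 239 CPM (counts scaled to the size of each library) in controls 1 and 2, and at 176 and 223 CPM in mutants 1 and 2. This difference missed the threshold of 0.05 (adjusted p = 0.219 by edgeR's quasi-likelihood test, with Benjamini-Hochberg adjustment). Since the mutation acts on splicing, this level does not check the genotype labels. All 11 listed oocyte markers were detected in every library, with a summed level between 13431 and 15026 CPM. For 6 of them the CPM ranges of the groups were separate, against 54.6% of all tested genes. None was called by edgeR. DESeq2 called *Ooep* higher and *Nlrp5* and *Mos* lower in mutants, and limma called *Ooep* higher. *Ooep* was at 473 and 383 CPM in controls and 921 and 725 CPM in mutants. Markers of other cells also differed between libraries, and some between the groups. The 16 cumulus and granulosa markers summed to 1342, 1136, 1992 and 1625 CPM in controls 1 and 2 and mutants 1 and 2, with 4, 8, 0 and 5 of them without a count. *Serpine2* alone gave 1270, 1080, 1615 and 1578 CPM of these sums, higher in both mutants. The other 15 summed to 71.8, 55.3, 376 and 47.1 CPM, highest in mutant 1 and lowest in mutant 2. Among these, *Cyp19a1*, which encodes aromatase, was lower in both mutants (16.4 and 23.6 CPM, against 34.2 and 42.5 CPM). *Has2* was higher in both (6.14 and 1.84 CPM, against 0.0403 and 0.794 CPM). Of the 10 tested cumulus and granulosa markers, 8 had a positive and 2 a negative log2 fold change. No marker of this list was called by edgeR or limma, and DESeq2 called *Has2* higher and *Cyp19a1* lower. The 14 leukocyte markers summed to 4.11, 5.99, 4.47 and 172.5 CPM, with 10, 11, 5 and 0 without a count. Of the 3 that were tested, edgeR and limma called none. DESeq2 called *Fcer1g* higher, with 25 and 13 counts in mutants and none in controls. The part of these cells in the results was not tested. In bulk RNA, fewer cells of a type and less RNA per cell cannot be told apart.

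Mutant oocytes were compared with controls to find RNAs that differed with the *Ezh2* genotype. Of the 10 remodeller genes, 9 passed the filter on low counts, and 1 of these, *Smarca2*, differed: its RNA was 2.005-fold lower in the mutants. DESeq2 and limma called the same gene alone, and none was called higher by any of these tools. Over all 15493 tested genes, edgeR called 581, or 3.75% (1.77% higher and 1.98% lower in mutants). DESeq2 called 1993 of the same genes and limma 738. No test of the 9 genes as a group was made. The median log2 fold change of the 9 genes was 0.07, against 0.05 over all tested genes, with 6 of them positive and 3 negative. At an unadjusted p under 0.05 the count was 2 of 9, *Smarca2* and *Smarcc1*, where 23.0% of all tested genes lay. For 4 of the 9 genes the CPM ranges of the groups were separate, against 54.6% of all tested genes, a share no higher than the background.

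**Figure D1:**
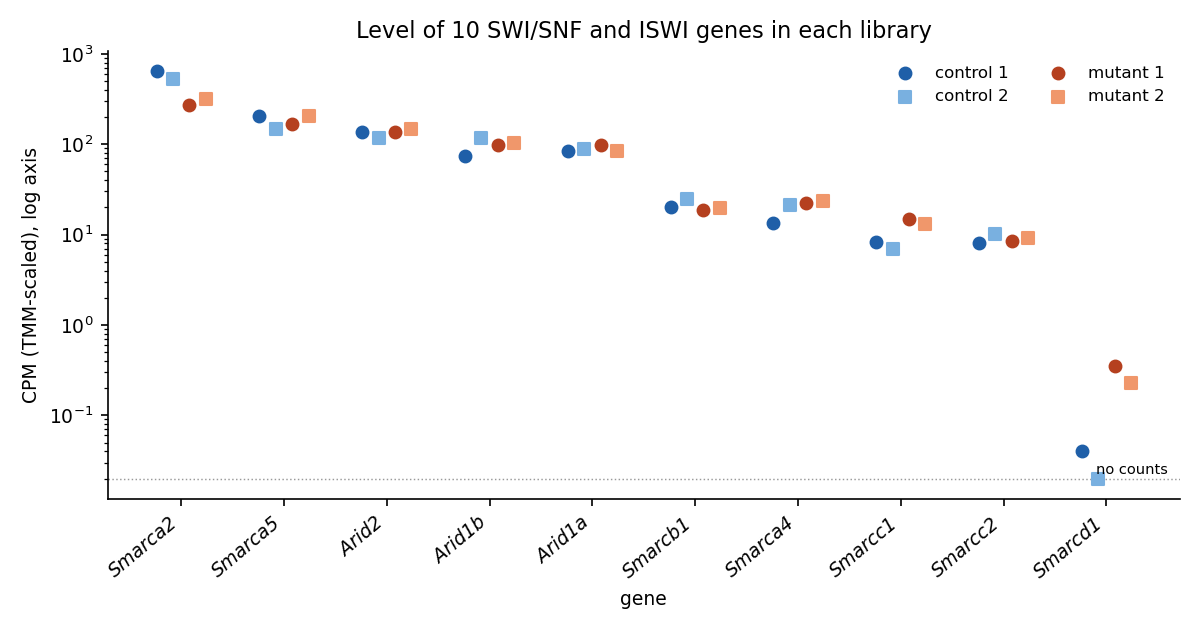
Level of each of the 10 genes in each library, in CPM on TMM-scaled library sizes (log axis), ordered by mean level. Points are single libraries, circles for replicate 1 and squares for replicate 2; *Smarca2* sits highest in all 4 libraries and lower in both mutants, and *Smarcd1* sits lowest, with no count in control 2 (drawn on the dotted line).

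The ATPase genes of SWI/SNF lay far apart in level. *Smarca2* (chromosome 19, 26605050 to 26778322, plus strand, mm10), which encodes the BRM motor, was read at 643 and 523 CPM in controls, against 268 and 313 CPM in mutants. Both mutants thus lay below both controls. The mean fell from 583 ± 84.8 CPM to 290.9 ± 31.8 CPM (SD over 2 libraries per group). The log2 fold change was -1.003 (SE 0.17, edgeR quasi-likelihood test, adjusted p = 0.0363). It was the 354th gene by p among the 15493. With the RSEM estimates, in which reads that fit several genes are divided between them, the expected counts were 17133 and 14160 in controls and 8236 and 9127 in mutants, and the log2 fold change was -0.97 (adjusted p = 0.0338).

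The fall of *Smarca2* kept its direction when each library was left out in turn, but the call needed both controls. Without control 1 the log2 fold change was -0.86 (edgeR adjusted p = 0.296) and without control 2 it was -1.19 (adjusted p = 0.217), while the number of genes called overall fell to 22 and 27. Without mutant 1, the library with the most cumulus marker RNA, the log2 fold change was -0.92. Without mutant 2, the library with the most leukocyte marker RNA, it was -1.13. Each of these fits left a group with a single library, so the spread came from the other group alone. With all libraries and upper-quartile scaling, *Smarca2* just missed the threshold (-0.95, edgeR adjusted p = 0.0506).

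*Smarca4* (chromosome 9, 21616169 to 21704230), which encodes the alternative motor BRG1, was far lower, at 13.5 and 21.3 CPM in controls and 22.5 and 23.4 CPM in mutants. Control 1 lay apart from the other 3 libraries, and the mutants were above both controls by a small margin. The log2 fold change was 0.40 (SE 0.27, edgeR adjusted p = 0.430). Leaving out control 1 gave 0.10 and leaving out control 2 gave 0.72. *Smarca5* (chromosome 8, 80698507 to 80739497), the ISWI motor, was abundant, at 205 and 149 CPM in controls and 168 and 202.5 CPM in mutants. These ranges overlapped (log2 fold change 0.07, SE 0.20, adjusted p = 0.881), and the sign turned without control 2 (-0.19) and without mutant 2 (-0.08). A processed copy, *Smarca5-ps*, held only 10 to 51 counts against at least 3753 for the gene.

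The annotated promoters of the SWI/SNF motors are shown because their RNA levels differed most among the 3 pairs of paralogs compared here. They cover 250 bases before to 50 bases after the RefSeq start (GRCm38.p6), at chr19:26604910-26605209 for *Smarca2* and chr9:21615919-21616218 for *Smarca4*, both on the plus strand. Capitals mark the GC box GGGCGG and the NRF1 core TGCGCA, searched with the CCAAT box CCAAT and the TATA box TATAAA on both strands and none of the marked matches overlaps another.
Smarca2: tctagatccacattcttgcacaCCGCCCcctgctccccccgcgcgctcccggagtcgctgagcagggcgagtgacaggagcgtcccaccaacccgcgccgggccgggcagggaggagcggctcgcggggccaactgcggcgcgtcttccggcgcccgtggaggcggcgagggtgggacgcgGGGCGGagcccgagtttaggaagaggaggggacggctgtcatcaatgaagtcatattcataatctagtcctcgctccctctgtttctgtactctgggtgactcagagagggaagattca
Smarca4: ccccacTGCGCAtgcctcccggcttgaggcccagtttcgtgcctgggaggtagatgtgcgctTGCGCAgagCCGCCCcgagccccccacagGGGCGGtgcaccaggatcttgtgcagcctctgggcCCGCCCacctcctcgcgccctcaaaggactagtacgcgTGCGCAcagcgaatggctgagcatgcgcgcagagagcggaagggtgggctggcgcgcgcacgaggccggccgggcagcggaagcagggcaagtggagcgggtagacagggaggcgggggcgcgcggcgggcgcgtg
*Smarca2* held 2 GC boxes and no NRF1 core, and *Smarca4* held 3 of each. Of 32851 promoters of this length, 35.7% held a GC box and 7.76% an NRF1 core, and neither sequence held a CCAAT box (37.4% of promoters) or a TATA box (13.6%). The table holds promoters for 9 of the 10 genes. A match describes the sequence only. Of the 46 annotated *Smarca2* transcripts, 37 start past the midpoint of the gene and thus not at the promoter shown. How much of the *Smarca2* RNA started at this promoter was not tested.

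The transcript length estimated for *Smarca2* was short, though this does not show which transcripts gave most of its reads. The deposited tables give each gene a length that is the mean over its annotated transcripts, weighted by their estimated abundance. For *Smarca2* this was 1282 and 1280 bases in controls and 1255 and 1266 bases in mutants. The longest coding transcript has 5921 bases, so the weighted length was between 21.2% and 21.7% of it in the 4 libraries. Among the 2756 tested genes with a coding transcript of at least 5000 bases the median was 69.7%, and 5.99% of them, 165 genes, were at or below the mean share of *Smarca2*. Of the 46 *Smarca2* transcripts in the annotation, 41 are shorter than 2400 bases and 37 start past the midpoint of the gene, whereas 4 have at least 5700 bases. A weighted length of 1282 bases allows at most 16.3% of the estimated *Smarca2* molecules in control 1 to be of those 4, and over the 4 libraries this limit lay between 15.8% and 16.3%. The limit is on molecules and not on reads, and the files hold no value per transcript. Whether the full-length transcripts fell could therefore not be measured here.

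**Figure D2:**
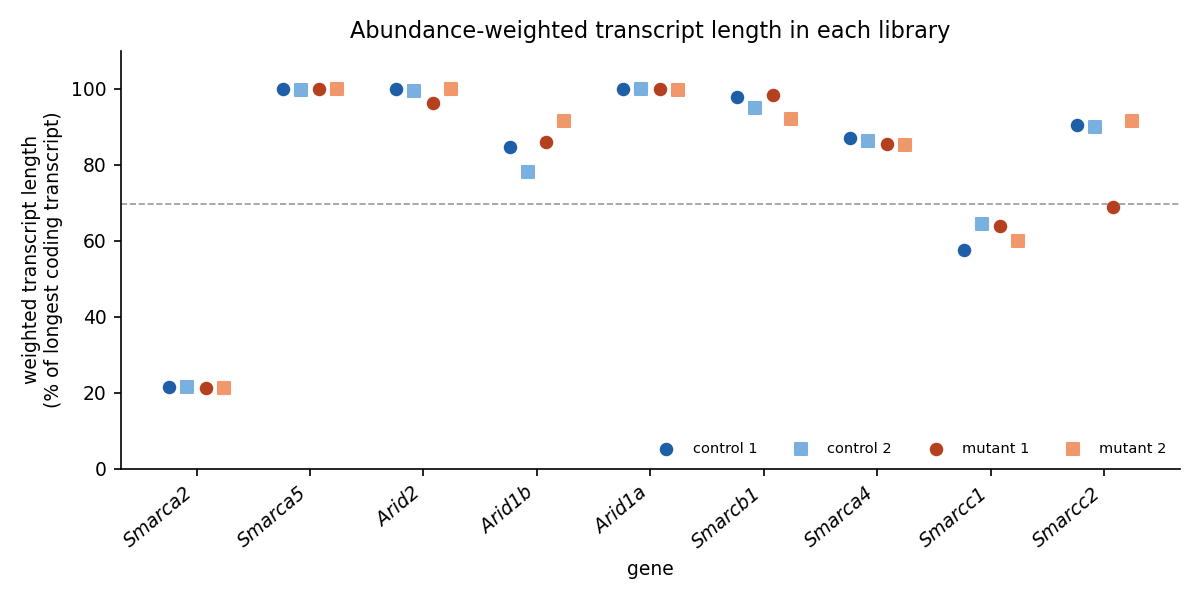
Abundance-weighted transcript length of 9 genes in each library, as a percentage of the longest annotated coding transcript; the dashed line is the median (69.7%) of tested genes with a coding transcript of at least 5000 bases. *Smarca2* lies between 21.2% and 21.7% in the 4 libraries, while *Smarca5*, *Arid1a* and *Arid2* lie above 96%; *Smarcd1* is left out for its low counts.

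The counts of *Smarca2* and of an antisense gene at its 3' end also differed between the deposited tables. The antisense gene *4931403E22Rik* (chromosome 19, 26768801 to 26823907, minus strand) overlaps the end of *Smarca2* and shares 40 exonic bases with it. In the count matrix it held 3266 and 2532 counts in controls and 1590 and 1850 in mutants, whereas the RSEM tables gave it 1, 2, 1 and 0. Over the same libraries the RSEM tables gave *Smarca2* 1166, 978, 678 and 785 more counts than the matrix did. These gains were smaller than the antisense counts of the matrix in every library. Where the other antisense counts went was not tested. The matrix counts of the antisense gene were lower in both mutants than in both controls (log2 fold change -0.88, SE 0.20, edgeR adjusted p = 0.0625). No source used here says if reads were counted by strand. Reads of the gene and of its antisense partner therefore cannot be told apart where they overlap. With the counts of *4931403E22Rik* added to those of *Smarca2* the log2 fold change was -0.98 (adjusted p = 0.0408).

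For most of the other genes the weighted length was closer to a full transcript. It was at or above 99.6% of the longest coding transcript in every library for *Smarca5* and *Arid1a*, and from 96.2% to 100% for *Arid2*. It lay between 92.1% and 98.4% for *Smarcb1* and between 85.2% and 87.1% for *Smarca4*. *Arid1b* lay between 78.1% and 91.5%, and *Smarcc1*, the shortest of these, between 57.7% and 64.5%. *Smarcc2* stood at 69.0% in mutant 1 and at up to 91.4% in the other libraries. The groups did not overlap in weighted length for *Smarca2* and *Smarca4*, shorter in mutants, and *Arid1b*, longer in mutants, against 37.8% of the 10591 tested genes whose length varied between libraries. The mean difference was small for *Smarca2* (1281 against 1260 bases) and *Smarca4* (5526 against 5441 bases). For *Arid1b* the means were 9212 bases in controls and 10056 bases in mutants.

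Of the core subunits, *Smarcc1* (chromosome 9, 110117708 to 110240178), a scaffold that holds the complex together, had more RNA in both mutants. It was read at 8.30 and 6.98 CPM in controls, against 14.7 and 13.1 CPM in mutants. The mutants lay above both controls, and the ratio of the means was 1.82. The log2 fold change of 0.87 (SE 0.27) did not pass over all genes (edgeR adjusted p = 0.126), nor under any of the 16 alternative settings, in which it ranged from 0.70 to 0.99 and its adjusted p from 0.0672 to 0.476. *Dhx30* overlaps it on the opposite strand with 286 to 376 counts per library, beside 176 to 415 for *Smarcc1*. Without strand, their reads cannot be told apart where they overlap.

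The paralog of that scaffold, *Smarcc2* (chromosome 10, 128459248 to 128490482), was at 8.01 and 10.1 CPM in controls and 8.59 and 9.20 CPM in mutants. The mutants fell within the range of the controls (log2 fold change -0.02, SE 0.29, edgeR adjusted p = 0.972). *Smarcb1* (chromosome 10, 75896769 to 75921617), a core subunit found in most forms of the complex, was at 20.3 and 24.7 CPM in controls and 18.6 and 19.5 CPM in mutants. The mutants lay below the controls by less than 1 CPM at the nearest pair, and the difference did not pass (log2 fold change -0.24, SE 0.22, adjusted p = 0.568).

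*Smarcd1* (chromosome 15, 99702129 to 99713991), which encodes a subunit that links the complex to transcription factors, was nearly silent. It held 1 and 0 counts in controls and 10 and 6 in mutants, and lay below the filter on low counts. The ratio of the rates was 14.6, with a 95% exact interval of 2.27 to 613 that covers counting error only and no spread between libraries. Amplified reads are not independent molecules. Without a filter on low counts the test gave an adjusted p of 0.475 (edgeR). Its deposited TPM, a level scaled by length and library, was 0.14, 0, 0.47 and 9.88, and the high value in mutant 2 came with a weighted length of 367 bases. Its paralogs share the position in the complex. *Smarcd2* was at 9.10 and 9.01 CPM in controls and 14.2 and 9.32 CPM in mutants, and was thus the main SMARCD gene by counts, while *Smarcd3* held 1, 0, 56 and 6 counts and was highest in mutant 1.

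The ARID genes, whose products select the type of SWI/SNF complex, were all well expressed and overlapped between the groups. *Arid1a* (chromosome 4, 133679008 to 133756769) was at 83.6 and 88.9 CPM in controls and 98.3 and 83.2 CPM in mutants (log2 fold change 0.07, SE 0.16, edgeR adjusted p = 0.826). *Arid1b* (chromosome 17, 4994332 to 5347656) was at 74.2 and 116 CPM in controls and 96.9 and 102.4 CPM in mutants (log2 fold change 0.07, SE 0.23, adjusted p = 0.898). The controls thus differed more from each other than from the mutants. *Arid2* (chromosome 15, 96287518 to 96404992) was at 137 and 118 CPM in controls and 137 and 149 CPM in mutants (log2 fold change 0.16, SE 0.15, adjusted p = 0.583). With 2 libraries per group these values do not show that the levels were equal.

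**Figure D3:**
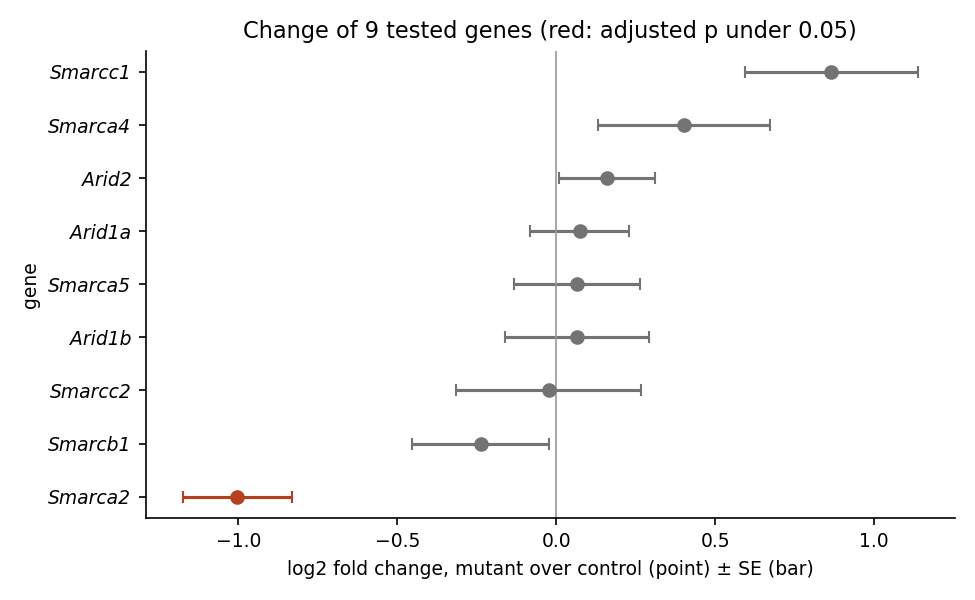
Log2 fold change of mutant over control oocytes for the 9 tested genes (points) with the standard error of the edgeR quasi-likelihood fit (bars), ordered by size. *Smarca2* at -1.003 is the only gene called, and *Smarcc1* at 0.87 has the largest positive value.

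Per length, the order of the genes by mean level was the same with both deposited sources, which share the lengths estimated by RSEM. In matrix CPM per kilobase of effective transcript length, *Smarca2* was highest, at 672, 547, 281 and 328 in controls 1 and 2 and mutants 1 and 2. It exceeded the next gene by 9.37-fold to 21.3-fold within a library, with its short effective length in the divisor. *Smarca5* followed at 25.7 to 35.4 CPM per kilobase. *Arid2* (14.6 to 18.3) and *Smarcb1* (14.6 to 19.4) came next and did not differ beyond their spread over the 4 libraries, nor did *Arid1a* (10.6 to 12.5) and *Arid1b* (7.96 to 12.5). *Smarca4* (2.62 to 4.53), *Smarcc1* (2.16 to 4.55) and *Smarcc2* (2.24 to 2.82) formed the low end and each overlapped with its neighbour, and *Smarcd1* was at most 0.486. The mean TPM gave the same ranks from 1 to 10, with 734 for *Smarca2* and 45.1 for *Smarca5*. Within single libraries the order by TPM could differ. In mutant 2, *Smarcd1* (9.88) lay above *Smarca4* (6.97), *Smarcc1* (6.53) and *Smarcc2* (3.43). *Smarca2* made up between 32.2% and 53.9% of the matrix counts of the 10 genes.

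Paralogs that occupy the same place in the complex were compared as ratios within a library, which do not depend on scaling between libraries. Per kilobase, *Smarca2* exceeded *Smarca4* by 257-fold and 133-fold in controls and by 64.3-fold and 72.4-fold in mutants, and the excess was smaller in mutants. These folds rest on the short effective length estimated for *Smarca2*, 956 bases on average against 5169 bases for *Smarca4*, and on a pool in which the long transcripts were at most 16.3% of molecules. In counts, with no length scaling, the excess was 47.5-fold and 24.6-fold in controls and 11.9-fold and 13.4-fold in mutants. The log2 ratio of *Smarca4* over *Smarca2* was -7.53 ± 0.67 in controls and -6.09 ± 0.12 in mutants (SD, n = 2 each), a difference of 1.44 (two-sided exact permutation test, p = 0.333, adjusted p = 0.5 over the 3 pairs). With 2 libraries per group 0.333 is the smallest p this test can give.

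The log2 ratio of *Smarcc1* over *Smarcc2* was 0.19 and -0.39 in controls and 0.92 and 0.65 in mutants. Both mutants held more *Smarcc1* than *Smarcc2* per kilobase, by 1.89-fold and 1.57-fold, whereas the controls lay on either side of equality (difference 0.88, exact permutation p = 0.333, adjusted p = 0.5, n = 2 each). The log2 ratio of *Arid1a* over *Arid1b* was 0.42 and -0.14 in controls and 0.27 and -0.05 in mutants. Here the groups overlapped and the difference was -0.03 (exact permutation p = 1, n = 2 each), with a positive sign in TPM (0.11).

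**Figure D4:**
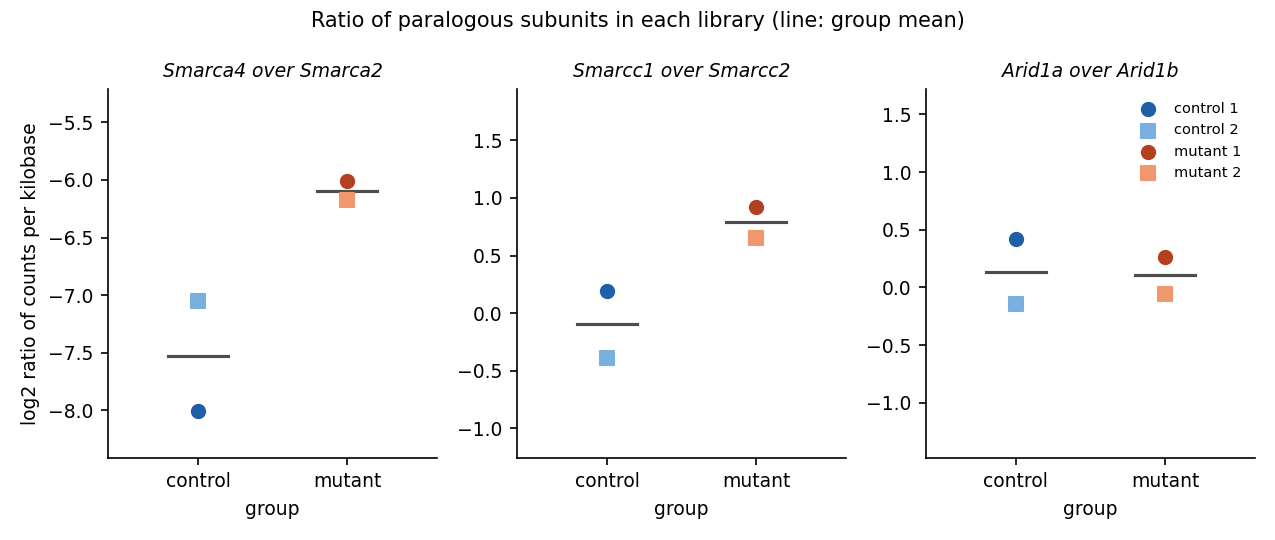
Log2 ratio of matrix counts per kilobase for 3 pairs of alternative subunits in each library, with the group mean as a line; every panel spans the same height. The ratio of *Smarca4* over *Smarca2* and that of *Smarcc1* over *Smarcc2* lie higher in both mutants than in both controls, and that of *Arid1a* over *Arid1b* overlaps.

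The remaining remodeller genes were read from 5 lists of 89 genes. Beside them stand all 15493 tested genes, of which edgeR called 3.75%, limma 738 genes and DESeq2 1993 genes. Of all tested genes, 23.0% lay at an unadjusted p under 0.05 by edgeR. Among the other SWI/SNF subunits, 0 of 16 tested genes were called by edgeR (2 at an unadjusted p under 0.05, both higher) and 0 by limma, with a median log2 fold change of 0.15. DESeq2 called 1 of them, *Dpf2*, higher. The most abundant were *Brd7*, a bromodomain subunit of PBAF, with means of 106 CPM for controls and 105.5 CPM for mutants, and *Actl6a*, an actin-related subunit, at 81.5 and 80.3 CPM. Of the 19 listed, 3 were below the filter on low counts: *Smarcd3*, *Dpf1* and *Actl6b*, the last with no count in any library, where 3 counts would be 0.107 to 0.121 CPM. *Actl6b* and *Dpf1* encode subunits of the neuronal form of the complex. The other ISWI genes were the alternative motor *Smarca1* and partners of ISWI. Of these, 0 of 11 tested genes were called by edgeR, limma or DESeq2, with a median of -0.04. At an unadjusted p under 0.05 by edgeR lay 2, both higher. *Smarca1* was 1 of these 2, with 15 and 10 counts in controls and 85 and 23 in mutants. The most abundant of the list were *Rbbp7* and *Cecr2*. *Rbbp7*, a histone-binding protein shared with several chromatin complexes, had 5590 ± 656 CPM for controls and 4871 ± 1095 CPM for mutants. *Cecr2*, a bromodomain partner of ISWI, was at 1431 ± 57.1 and 1229 ± 181 CPM (SD, n = 2 each).

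The CHD and NuRD list held the only other remodeller gene called by edgeR. *Chd2* (chromosome 7, 73426638 to 73541830), a CHD family remodeller, held 174 and 202 counts in controls and 2531 and 2605 in mutants. The means were 7.51 ± 0.714 CPM for controls and 93.9 ± 5.64 CPM for mutants (SD over 2 libraries). The rise was 12.5-fold (log2 fold change 3.64, SE 0.19, edgeR adjusted p = 0.000577). The call held under all 16 alternative settings. Among them, the threshold of 0.1 reused the main fit, so that pass was fixed in advance. Of the 19 genes on that list edgeR called 1 higher and none lower, and 14 had a positive and 5 a negative log2 fold change. The median was 0.26, against 0.05 over all tested genes. At an unadjusted p under 0.05 lay 4, all higher, where 23.0% of all tested genes lay. DESeq2 called 3 higher, adding *Chd4* and *Mta2*. None of 22 tested genes of the INO80, SRCAP and TIP60 complexes was called by edgeR (2 at an unadjusted p under 0.05, both higher; median 0.15) or limma, and DESeq2 called 1, *Dmap1*, higher; *Ep400* and *Nfrkb*, the most abundant, had log2 fold changes of 0.29 and -0.23. None of 15 other SNF2 family genes was called by edgeR (1 at an unadjusted p under 0.05, lower; median -0.03) or limma, and DESeq2 called 1, *Rad54l*, lower. *Atrx* and *Shprh*, the most abundant of them, had log2 fold changes of 0.07 and 0.33.

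**Figure D5:**
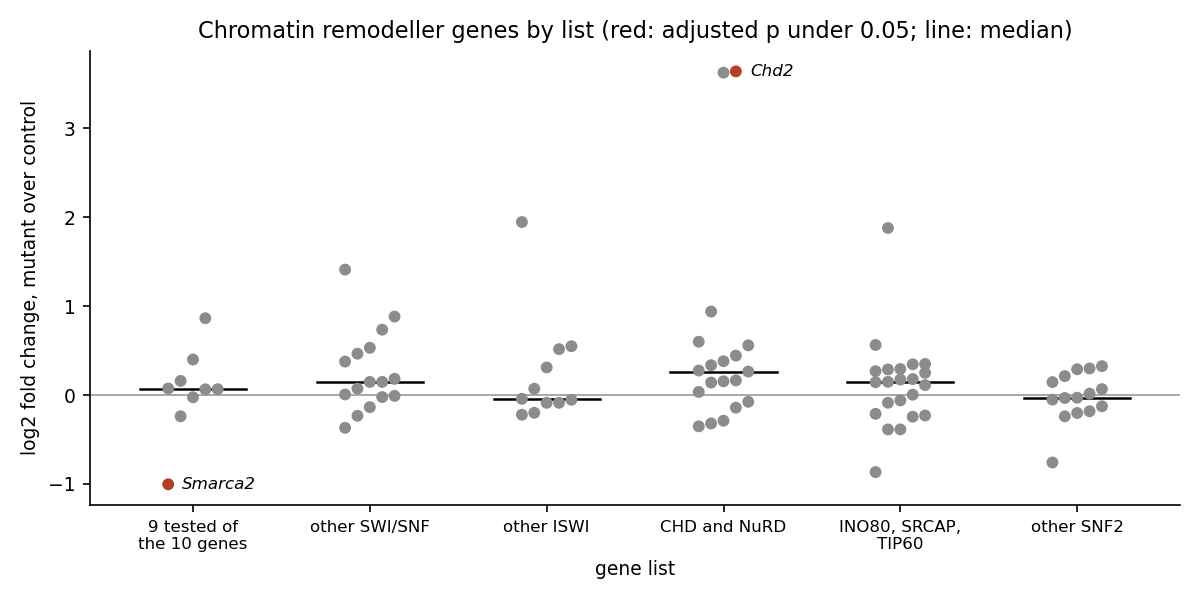
Log2 fold change of mutant over control for every tested gene of the 10 remodeller genes and the 5 other lists, with the median of each list as a line. *Smarca2* at -1.003 and *Chd2* at 3.64 are the 2 genes called by edgeR; *Mta2*, at 3.63 and with most of its counts in mutant 2, was not (adjusted p = 0.106).

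The genes whose levels followed *Smarca2* most closely over the 4 libraries were sought among the 91 other tested remodeller genes, by the Euclidean distance of log2 CPM centred over libraries. They were *Rad54l*, a recombination helicase gene (distance 0.33), *Ino80b* (0.43) and *Chd5* (0.74). *Rad54l* was at 43.3 and 43.4 CPM in controls and 22.7 and 28.6 CPM in mutants, and did not pass (log2 fold change -0.76, edgeR adjusted p = 0.0844). *Ino80b* held only 12 to 27 counts per library, and *Chd5* was at 4.39 and 4.56 CPM in controls and 2.66 and 4.36 CPM in mutants. The likeness rests on 4 libraries that share their group means.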

How the data were processed

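The files the authors deposited were 1 table of raw read counts over all libraries and, for each library, an RSEM table. Per the file headers, the RSEM tables of the authors hold expected counts and, in bases, length and effective length for each gene. TPM was deposited by the authors per the file headers and used only for levels and as an alternative for the paralog ratios. FPKM, deposited by the authors as well, was not tested. Cutadapt 1.16, STAR, RSEM and mm10 are named in the submitters' processing notes. The counter that made the raw count table, and its use of strand, are not stated there.

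The raw counts went into edgeR 4.0.16 under R 4.3.3 (TMM scaling, filterByExpr, glmQLFit and glmQLFTest, genotype alone, Benjamini-Hochberg adjusted p under 0.05 over all tested genes). The SE is the log2 fold change over the square root of F. The script was tested on simulated counts, where it recovered 22% of 2-fold and 58% of 4-fold changes. Genes not called can thus still differ. Ratios per kilobase used the effective length averaged over libraries, and exact permutation tests were run in Python 3.11.15. GENCODE M21 gave coordinates and transcript lengths. The alternatives were DESeq2 1.42.0, limma 3.58.1, other scalings, other filters, the replicate number as a block, leaving out each library, rounded expected counts, and a threshold of 0.1; adding the antisense counts, and the weighted lengths, were chosen after seeing the data. The 10 genes and the lists were chosen with earlier results of these data known. The named genes were the 10, *Ezh2*, up to 4 called genes per other list or else its 2 most abundant, and the 3 nearest patterns. The markers *Ooep*, *Nlrp5*, *Mos*, *Serpine2*, *Cyp19a1*, *Has2* and *Fcer1g* were added after their values were seen. So were *4931403E22Rik*, *Smarca1*, *Smarca5-ps*, *Dhx30*, *Smarcd2*, *Smarcd3*, *Dpf1*, *Dpf2*, *Actl6b*, *Chd4*, *Mta2* and *Dmap1*.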

Additional observations from a re-analysis of the deposited data

How the results depend on the processing

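The number of genes called, 581, was 1993 with DESeq2, 1322 with no filter on low counts, 1721 at a threshold of 0.1, and from 22 to 1688 with a library left out. It was 1213 with the replicate block (correlation of deviations of same-numbered libraries 0.18; the labels tie the numbers to no animal or day), and the same 1 of the 10 genes, *Smarca2*, was called with the block. The number of the 10 called was 0 with upper-quartile scaling and from 0 to 1 with a library left out, 0 without control 1 and without control 2, where the lone control is assumed to vary like the mutants; under the other settings run it was 1, *Smarca2*. *Smarca2* kept its direction under all 16 alternatives (log2 fold change from -1.19 to -0.86) and passed in 13. Of these 13, the threshold of 0.1 reused the main fit, so its direction and pass were fixed in advance. Genes near no change turned their sign. *Smarcc2* was at 0.027 with upper-quartile scaling and 0.060 with total counts. *Brd7* was at 0.042 and 0.086 and *Actl6a* at 0.030 and 0.068 under the same settings. Testing only genes that averaged 10 CPM or more put them at 0.035 and 0.021, and the RSEM counts put *Brd7* at 0.0023. With a library left out, *Smarcc2* ranged from -0.19 to 0.10, *Arid1a* from -0.068 to 0.18, *Arid1b* from -0.23 to 0.38, *Smarca5* from -0.19 to 0.31, *Brd7* from -0.23 to 0.18, *Actl6a* from -0.24 to 0.14 and *Atrx* from -0.15 to 0.23. The ratio of *Arid1a* over *Arid1b* was 0.11 in TPM and from -0.31 to 0.25 with a library left out. The cause of these shifts was not tested. *Smarcd1*, below the filter on low counts, did not pass in the test without that filter (edgeR adjusted p = 0.475).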
